A study of Homo sapiens with 34 samples.

Results

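The enzymes that make serine and pass its carbon to folate were followed in U2OS, a human osteosarcoma cell line, here with a stable *Bmal1*:*luc* reporter in which the *Bmal1* promoter drives luciferase. The set held 9 genes (*PHGDH*, *PSAT1*, *PSPH*, *SHMT1*, *SHMT2*, *MTHFD1*, *MTHFD2*, *MTHFD1L*, and *ALDH1L2*) of the 28690 loci in the deposited expression tables. Members were the loci whose gene name was 1 of these 9, and each gene matched 1 locus that carried no other gene name. All 9 lay among the expressed loci, those of highest mean FPKM (fragments per kilobase of transcript and per unit of mapped reads) over all libraries, the lowest of which had a mean of 0.698 FPKM. Cells of both groups were synchronized with dexamethasone and then kept in 5 mM 6AN, an inhibitor of the pentose phosphate pathway (PPP), or in a matched amount of DMSO (control). RNA was taken every 4 hr, at times labelled 0 to 44 hr, so that each condition had 12 time points with 1 library each, 24 libraries in all. How long after synchronization or the start of treatment the labelled 0 hr lay was not established here. The label is therefore not read as the start of treatment. A further 10 ChIP-seq libraries, for BMAL1, CLOCK, H3K9ac, H3K4me3, and input in each condition, were made after 24 hr of treatment.

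The serine pathway branches from glycolysis. PHGDH oxidizes 3-phosphoglycerate, PSAT1 transfers an amino group to the product, and PSPH removes the phosphate to release serine. SHMT1 in the cytosol and SHMT2 in mitochondria then move a carbon from serine to tetrahydrofolate and leave glycine. In mitochondria, MTHFD2 oxidizes the folate-bound carbon, MTHFD1L releases it as formate, and ALDH1L2 can oxidize it fully while making NADPH. In the cytosol, MTHFD1 takes formate back onto folate for purine and thymidylate synthesis. Several of these genes are known targets of ATF4, the transcription factor of the integrated stress response.

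The control and 6AN tables were each normalized across their own 12 libraries, and there was 1 library for each condition and time point. Differences between conditions are therefore descriptions without a p-value, and a member was counted as higher or lower where the mean of its 12 time-matched differences in log2(FPKM + 1) reached 1.5-fold and all 12 differences had the same sign. Relative depth, with the median library of each table set to 1 and read from the commonest ratio between low FPKM values, ranged from 0.581 to 1.31 in control and from 0.696 to 1.55 in 6AN, and total read numbers were not in the tables. The median FPKM of the expressed loci was 9.60 to 9.88 in control libraries and 9.35 to 9.71 in 6AN libraries. Over all expressed loci the median difference was −0.04 on the log2 scale. Of 7 osteoblast lineage genes, 5 were expressed, while *COL1A2* and *SP7* had means of at most 0.04 FPKM in either condition. This list also moved with the conditions. By the rule above 3 of its 5 expressed genes were lower in 6AN (*COL1A1* by a log2 difference of −2.02, *SPARC* by −1.35, and *ALPL* by −0.64), against 7.03% of all expressed loci. At all 12 hours 4 were lower (19.8% of expressed loci). Its summed FPKM ranged from 1202 to 1615 in control and from 800 to 1157 in 6AN. Of 8 marker genes for blood, epithelial, glial, and neuronal cells, 3 were expressed, mainly *KRT8* (epithelial keratin). The summed FPKM of these 8 ranged from 85.2 to 140 in control and from 50.6 to 67.7 in 6AN, and the part of either list in the differences below was not tested.

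In 6AN, 5 of the 9 enzymes were higher than in control by this rule (*PHGDH*, *PSAT1*, *SHMT2*, *MTHFD2*, and *ALDH1L2*), against 3.33% of all expressed loci. *MTHFD1L* was also higher at every hour, with a mean just under the 1.5-fold minimum. No enzyme was lower by the rule, which 7.03% of expressed loci met, but both cytosolic folate enzymes had lower means in 6AN, *MTHFD1* at all 12 hours and *SHMT1* at 11 of 12. With no minimum fold, 6 of 9 members were higher at all 12 time points (12.6% of expressed loci) and 1 was lower at all 12 (19.8%). The median of the 9 differences was 0.61 on the log2 scale. In RNA from whole cultures, a change in RNA per cell cannot be told apart from a change in the share of cells that make it. All 12 values in 6AN lay above all 12 control values for 3 members (*PHGDH*, *MTHFD2*, and *MTHFD1L*; 5.66% of expressed loci), and all 12 lay below for *MTHFD1* (9.92%).

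**Figure D1:**
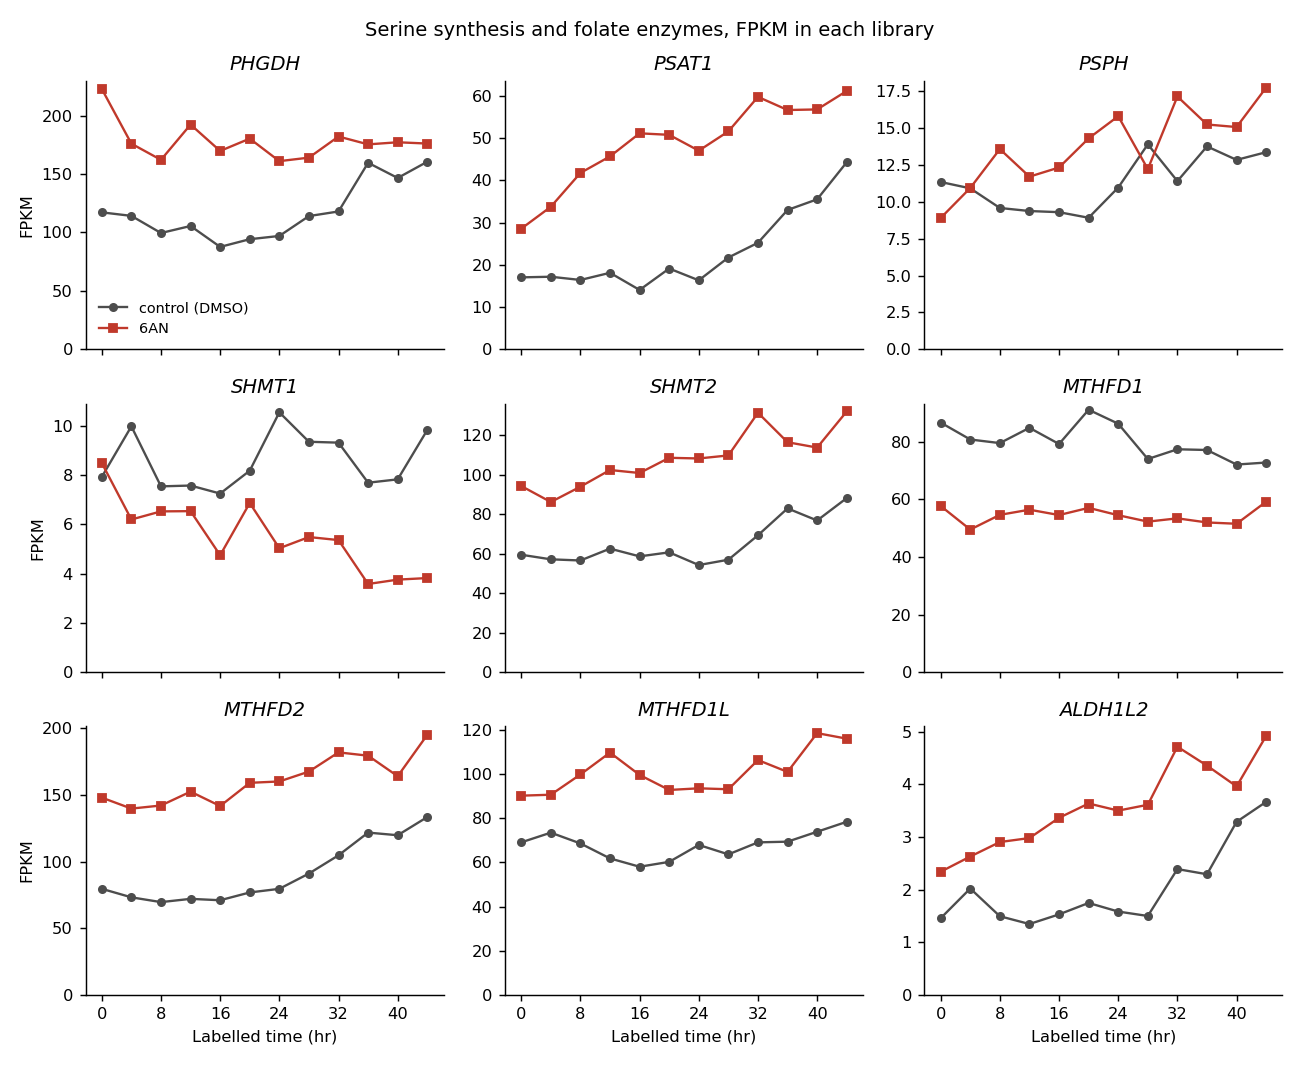
FPKM of the 9 enzymes (vertical axes, each from 0) against labelled time in hours, with 1 point per library, in control (grey circles) and 6AN (red squares). *PSAT1*, *SHMT2*, *MTHFD2*, *MTHFD1L*, *PHGDH*, and *ALDH1L2* were higher in 6AN at all 12 hours, *MTHFD1* was lower at all 12, and the *PSPH* and *SHMT1* curves cross.

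*PHGDH*, the entry enzyme of serine synthesis, had the highest mean level of the set. Its FPKM in control was lowest at 87.6 (16 hr), had a median of 114, and was highest at 160 (44 hr), while in 6AN it was lowest at 161 (24 hr), had a median of 176, and was highest at 223 (0 hr). The ranges did not overlap, although the highest control value came close to the lowest 6AN value. The mean rose from 118 ± 24.9 to 178 ± 16.7 FPKM (SD over 12 time points, here and below), and the mean difference was 0.61 ± 0.30 on the log2(FPKM + 1) scale, or 1.53-fold. The difference was 0.83 ± 0.14 over the first 6 time points and 0.40 ± 0.26 over the last 6, and by 44 hr it was 0.13. *PHGDH* met the 1.5-fold minimum by a small margin and missed it over the last 6 time points and without 16 hr (0.5849 against a minimum of 0.5850). Control values climbed after 24 hr, while those in 6AN stayed between 161 and 192 FPKM from 4 hr onward.

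*PSAT1*, the aminotransferase of the second step, showed the largest difference among the members. Control values had a lowest value of 14.1, a median of 18.6, and a highest of 44.3 FPKM, and 6AN values 28.5, 50.9, and 61.1. The control libraries of 36 to 44 hr exceeded the 6AN library of 0 hr, so the ranges overlapped, and 6AN was higher at each of the 12 hours. The mean went from 23.2 ± 9.49 to 48.7 ± 10.1 FPKM, with a difference of 1.10 ± 0.39, or 2.14-fold, and it was the only member past 2-fold. At 16 hr, where the gap was widest, the log2 difference was 1.79, and at 44 hr, where it was narrowest, 0.46. It was 1.23 ± 0.37 over the first 6 time points and 0.96 ± 0.39 over the last 6.

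*PSPH*, the phosphatase of the last step, differed less. Its control values ran from 8.92 through a median of 11.2 to 13.9 FPKM, and its 6AN values from 8.90 through 13.9 to 17.7. The ranges overlapped, and 6AN was higher at 10 of 12 time points. The difference was 0.25 ± 0.29, within the spread over time points, and at 0 hr it was −0.32.

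*MTHFD2* and *SHMT2* act in the mitochondrial arm of folate metabolism. *MTHFD2* FPKM was 69.6 at its lowest, 79.6 at its median, and 133 at its highest in control, and 140, 160, and 195 in 6AN. Every 6AN library was above every control library. The mean went from 91.1 ± 22.9 to 161 ± 17.7 FPKM, a difference of 0.85 ± 0.21, or 1.80-fold. That difference was 0.99 ± 0.07 over the first 6 time points and 0.70 ± 0.22 over the last 6, and was smallest at 40 hr (0.45). *SHMT2* FPKM was 54.2, 60.0, and 88.1 at its lowest, median, and highest in control, and 86.1, 108, and 132 in 6AN. The control library of 44 hr exceeded the lowest 6AN library, at 4 hr, so the ranges overlapped there. Its difference of 0.73 ± 0.16, or 1.66-fold, lay between 0.48 and 0.98 at all 12 hours.

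*MTHFD1L*, the formate-releasing synthetase, ran from 58.1 through a median of 68.9 to 78.4 FPKM in control and from 90.3 through 99.8 to 119 in 6AN, without overlap. The difference was 0.57 ± 0.15, or 1.48-fold. *ALDH1L2*, which oxidizes formyl-folate, was the least expressed member, with values of 1.35, 1.66, and 3.67 FPKM (lowest, median, highest) in control and 2.34, 3.56, and 4.92 in 6AN. The ranges overlapped, and 6AN was higher at all 12 hours with a difference of 0.61 ± 0.23, or 1.53-fold. At such levels the added 1 compresses differences, and the plain ratio of the *ALDH1L2* means was 1.77, as for *MTHFD2* (1.77) and above *SHMT2* (1.66).

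The cytosolic folate enzymes differed in the opposite direction. *MTHFD1*, which handles formate in the cytosol, had FPKM of 72.1, 79.4, and 91.2 at its lowest, median, and highest in control and of 49.5, 54.5, and 59.2 in 6AN. Every 6AN value was below every control value. The mean fell from 80.2 ± 6.01 to 54.4 ± 2.84 FPKM, a difference of −0.55 ± 0.11, or 0.683 times the control, and so did not reach 1.5-fold. *SHMT1*, the cytosolic serine hydroxymethyltransferase, had FPKM of 7.25, 8.05, and 10.6 in control and 3.58, 5.42, and 8.50 in 6AN. The 6AN library of 0 hr was above its control by 0.09 on the log2 scale, and the other 11 were below. The mean difference was −0.58 ± 0.38, or 0.670 times the control, and it went from −0.27 ± 0.25 over the first 6 time points to −0.88 ± 0.18 over the last 6. Without 0 hr *SHMT1* met the rule for lower genes.

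**Figure D2:**
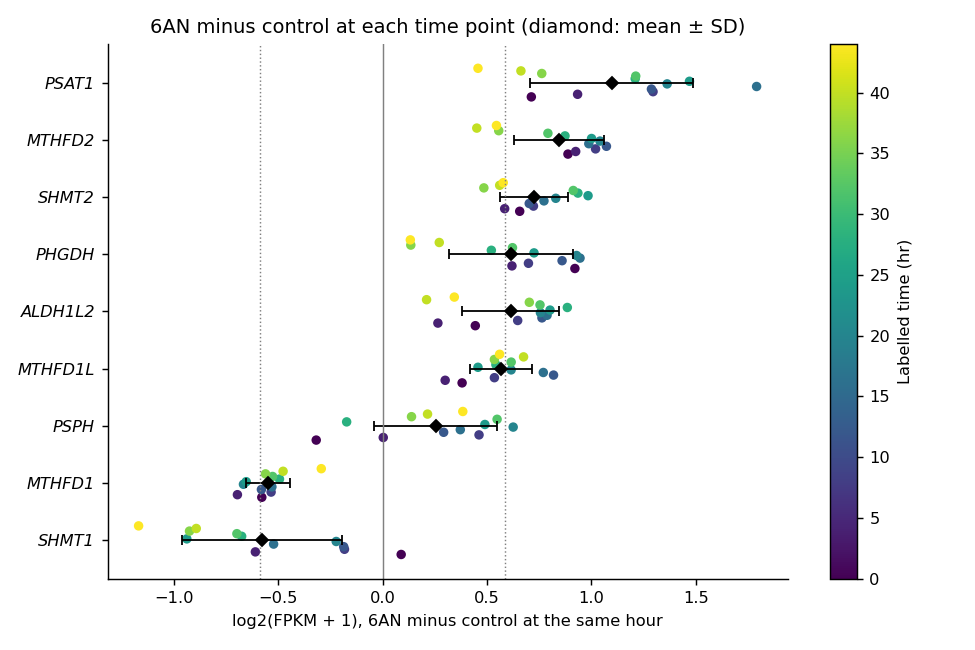
Difference in log2(FPKM + 1) between 6AN and control at the same hour (horizontal axis) for each enzyme, with 1 point per time point coloured by labelled time, and diamonds with bars for the mean ± SD over 12 time points. Dotted lines mark 1.5-fold in either direction. *PSAT1* has the largest mean (1.10), and *MTHFD1* (−0.55) and *SHMT1* (−0.58) are the members with means below 0.

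Some loci extended past the gene in the RefSeq annotation of GRCh38.p14. The *MTHFD1* locus of the tables (hg38, chr14:64388041-64540368) ran 80655 bases beyond RefSeq *MTHFD1* and overlapped 4 other loci, *AKAP5*, *ZBTB1*, *ZBTB25*, and *LOC102723809*. The *SHMT1* locus (chr17:18315280-18363563) ran 12606 bases beyond and overlapped *SMCR8* and *MIR6778*, and the *SHMT2* locus (chr12:57229573-57240692) ran 5895 bases beyond and overlapped *NDUFA4L2*. Whether reads were assigned by strand was not given in the sources used here, so the values of these 3 members could hold reads of their neighbours. The other 6 loci ran at most 149 bases beyond RefSeq and overlapped no other locus. RefSeq also lists pseudogenes named for *MTHFD2* (7), *PSAT1* (4), *PSPH* (1), *SHMT1* (1), and *MTHFD1* (1), and reads shared with such copies could not be separated.

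FPKM is scaled by transcript length, so levels of different enzymes can be set side by side. In control, mean FPKM fell in the order *PHGDH*, *MTHFD2* (91.1), *MTHFD1* (80.2), *MTHFD1L* (67.8 ± 5.99), *SHMT2* (65.2 ± 11.4), *PSAT1*, *PSPH* (11.3 ± 1.81), *SHMT1* (8.59 ± 1.14), and *ALDH1L2* (2.03 ± 0.76). Over 12 libraries the ranges of neighbours overlapped from *PHGDH* through *SHMT2* and between *PSPH* and *SHMT1*. *PHGDH* was nonetheless above *MTHFD2* in all 12 control libraries, while *MTHFD2* was above *MTHFD1* in only 5. In 6AN the order was *PHGDH*, *MTHFD2* (161), *SHMT2* (108 ± 14.1), *MTHFD1L* (101 ± 9.78), *MTHFD1* (54.4), *PSAT1* (48.7), *PSPH* (13.8 ± 2.63), *SHMT1* (5.53 ± 1.47), and *ALDH1L2* (3.58 ± 0.81). *MTHFD1* thus moved from the third to the fifth place, below all 12 values of *MTHFD1L*, and its range overlapped that of *PSAT1* in 6AN. The other neighbours whose ranges overlapped in 6AN were *PHGDH* with *MTHFD2*, *SHMT2* with *MTHFD1L*, and *SHMT1* with *ALDH1L2*.

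Ratios of enzymes within a library do not depend on how the tables were normalized, so they could be tested between conditions. For 3 pairs that catalyse matching steps in mitochondria and cytosol, the log2 FPKM ratio was compared over the 12 time-matched pairs with an exact two-sided sign-flip permutation test. *SHMT2* was 7.56 times *SHMT1* in control and 20.02 times in 6AN (geometric means). The log2 ratio ranged from 2.36 to 3.43 in control and from 3.47 to 5.11 in 6AN, so the ranges did not overlap. The difference was 1.41 ± 0.46, higher in 6AN at 12 of 12 time points (exact permutation p = 0.00049, the smallest this test can give, and 0.00049 after Benjamini-Hochberg adjustment over 3 ratios).

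*MTHFD2* was 1.11 times *MTHFD1* in control and 2.95 times in 6AN. Its log2 ratio ranged from −0.25 to 0.87 in control and from 1.36 to 1.79 in 6AN, with a difference of 1.41 ± 0.30 and the same exact permutation p, 0.00049. *MTHFD1L* was 0.845 times *MTHFD1* in control and 1.85 times in 6AN, with log2 ratios of −0.60 to 0.11 against 0.65 to 1.20. That difference was 1.13 ± 0.16 (exact permutation p = 0.00049). All 3 ratios were higher in 6AN at 12 of 12 hours. Each numerator was higher in 6AN at all 12 hours, while *MTHFD1* was lower at all 12 and *SHMT1* at 11. The direction of the ratios thus followed from the differences given above, and the p-values add no separate support. The time points came from 1 series of cultures per condition, so these p-values measure the spread over hours and not the spread between experiments. Each ratio has *SHMT1* or *MTHFD1* as its denominator, whose loci overlap other loci as given above.

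**Figure D3:**
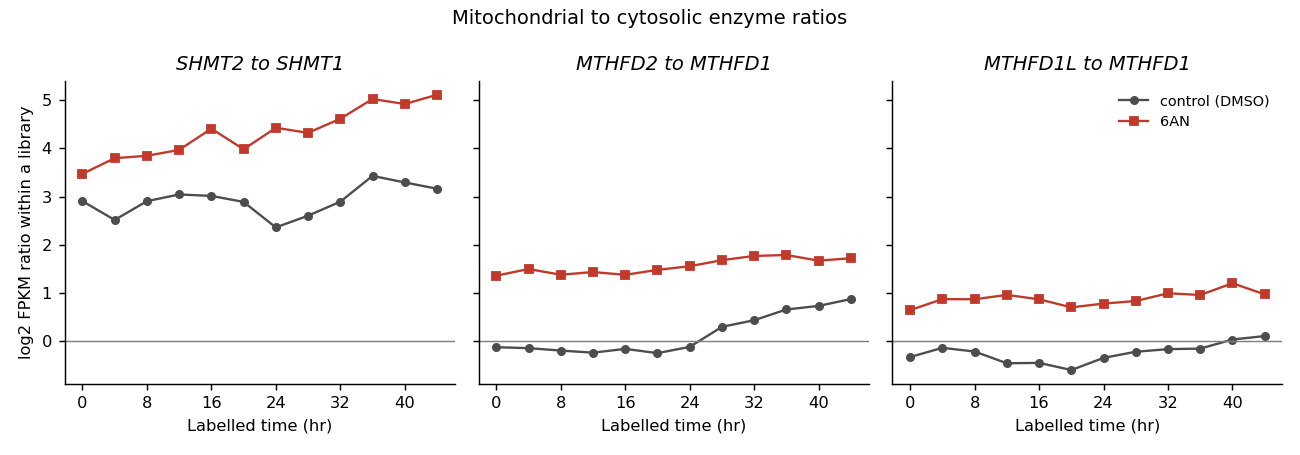
Log2 ratio of FPKM within each library (vertical axis) against labelled time in hours for *SHMT2* to *SHMT1*, *MTHFD2* to *MTHFD1*, and *MTHFD1L* to *MTHFD1*, in control (grey circles) and 6AN (red squares), 1 point per library. The 6AN points lie above all control points in each panel, by means of 1.41, 1.41, and 1.13.

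The enzymes also changed over the 44 hr. Linear trends in log2(FPKM + 1) were fitted with limma within each table across all expressed loci, with Benjamini-Hochberg adjusted p below 0.05 as the threshold. The hours of a condition came from 1 series of cultures and were fitted as independent. The p-values of slopes and of their differences therefore measure scatter around a line and not the spread between experiments. In control, 4 of 9 members rose (2.96% of expressed loci) and 0 fell (2.95%), with *MTHFD1* alone reaching an unadjusted p below 0.05 downward (−0.12 ± 0.04 per 24 hr, adjusted p = 0.13, limma). *PSAT1* rose by 0.72 ± 0.13 on the log2 scale per 24 hr (SE, limma adjusted p = 0.0084) and *MTHFD2* by 0.50 ± 0.08 (limma adjusted p = 0.0039). Neither rise was steady. Up to 24 hr, control *PSAT1* stayed between 14.1 and 19.1 FPKM, and from 28 hr it ran from 21.7 to 44.3. Control *MTHFD2* stayed between 69.6 and 79.6 FPKM up to 24 hr and ran from 91.0 to 133 from 28 hr. *ALDH1L2* rose by 0.42 ± 0.11 (limma adjusted p = 0.041) and *SHMT2* by 0.30 ± 0.07 (limma adjusted p = 0.038), and both had their higher control values from 32 hr on. The calls for *ALDH1L2* and *SHMT2* were each lost in 9 of the 12 fits that left out a time point, and were kept without 24 or 28 hr and without 4 hr (*ALDH1L2*) or 0 hr (*SHMT2*). When the second cycle was compared with the first at matching hours, 0 of the 9 passed in control by limma, 6 had an unadjusted p below 0.05, and *MTHFD2* had the lowest adjusted p, 0.070. The shares of all expressed loci under this fit were not computed, so these counts stand without a background.

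In 6AN, 5 of 9 members rose (11.6% of expressed loci) and 1 fell (12.3%). *PSAT1* rose by 0.49 ± 0.07 per 24 hr (limma adjusted p = 0.00072), *ALDH1L2* by 0.40 ± 0.05 (0.00019), *PSPH* by 0.37 ± 0.08 (0.0046), *SHMT2* by 0.28 ± 0.04 (0.00080), and *MTHFD2* by 0.23 ± 0.04 (0.0016). *SHMT1* fell by 0.47 ± 0.09 (limma adjusted p = 0.0026). *PHGDH* and *MTHFD1* had slopes of −0.07 ± 0.06 and 0.00 ± 0.04 in 6AN, and *MTHFD1L* one of 0.15 ± 0.05 (limma adjusted p = 0.059), which passed without 12 hr (0.023) or 28 hr (0.040).

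The slopes of both tables were compared by an interaction term, which a constant factor between the tables does not alter apart from the added 1. *SHMT1* was the 1 member with a lower slope in 6AN (4.55% of expressed loci), by −0.53 ± 0.12 per 24 hr (limma adjusted p = 0.0068), and 0 members had a higher slope (3.78%), also at an unadjusted p below 0.05. Without the 0 hr libraries the adjusted p for *SHMT1* was 0.056. The slopes of *PHGDH* and *MTHFD2* were also lower in 6AN, by −0.39 ± 0.13 and −0.27 ± 0.09, and missed the threshold with limma adjusted p of 0.062 and 0.058, and that of *MTHFD2* passed without 0 hr (0.014).

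**Figure D4:**
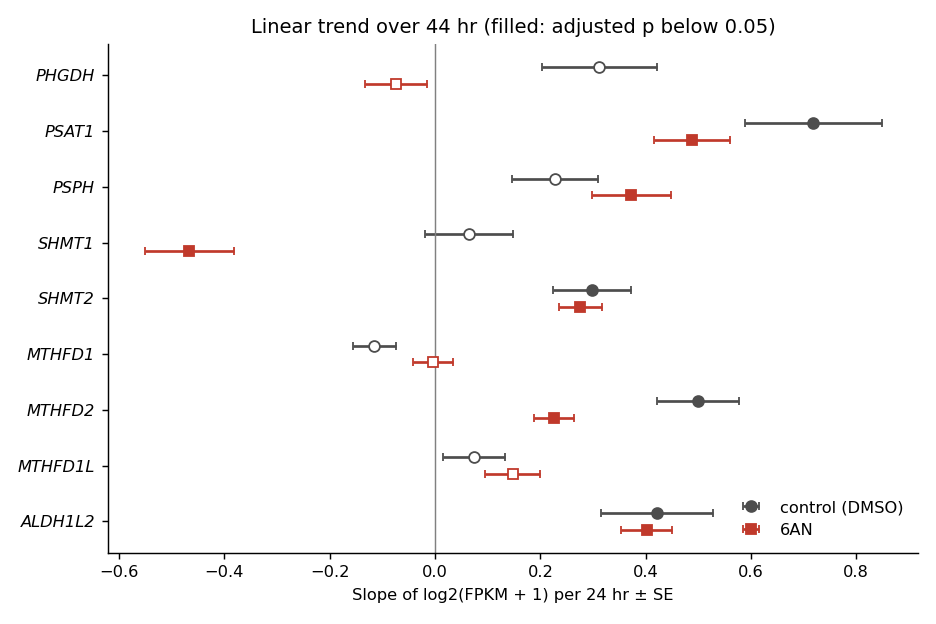
Slope of log2(FPKM + 1) per 24 hr ± SE (horizontal axis) for each enzyme in control (grey circles) and 6AN (red squares), filled where the limma adjusted p was below 0.05. *PSAT1*, *SHMT2*, *MTHFD2*, and *ALDH1L2* rose in both conditions, and *SHMT1* fell in 6AN (−0.47) with a control slope of 0.06.

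Pearson's coefficient of log2(FPKM + 1) over the 12 hours of a table, given as a description since neighbouring hours share the trends above, had a median of 0.60 over the 36 pairs of members in control and of 0.25 in 6AN. In control, *PSAT1* and *MTHFD2* had the highest coefficient, 0.97, and *PHGDH* and *PSAT1* followed each other with 0.92. In 6AN the highest was that of *SHMT2* and *ALDH1L2*, 0.95, while *PHGDH* and *PSAT1* had −0.49. *MTHFD1* had a negative coefficient with each of the other 8 members in control, from −0.72 to −0.09. *SHMT1* in 6AN ran from −0.78 to 0.49.

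No member was rhythmic with a period of 24 hr by a permutation rank test against umbrella shapes at p of at most 0.01, in control (0.946% of expressed loci) or in 6AN (0.987%). The lowest unadjusted p among members was 0.096 for *SHMT1* in control and 0.10 for *MTHFD1L* in 6AN, so 0 members reached 0.05 in either condition. By harmonic regression with limma, 1 member reached an unadjusted p below 0.05 in control (*SHMT1*) and 1 in 6AN (*MTHFD1L*), and none passed after adjustment. After adjustment the umbrella test called 0 of all expressed loci in either condition, with 738 and 626 loci at an unadjusted p below 0.05, so no gene reached an adjusted call with 2 points per phase. The shares called at p of at most 0.01 were no larger than the threshold alone would give. The test therefore cannot tell a member without a rhythm from one whose rhythm it missed. With the RAIN algorithm at the same p the paper called more transcripts circadian, and it reports longer periods in 6AN than the 24 hr tested here.

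The other genes of serine and folate metabolism had differences in both directions. Of 29 listed genes, 26 were expressed, and their median difference was −0.09, against 0.61 for the members and −0.04 for all expressed loci. By the 1.5-fold rule 3 were higher in 6AN and 3 lower (3.33% and 7.03% of expressed loci). At all 12 hours 4 were higher and 6 lower (12.6% and 19.8%), which is near the shares of all expressed loci. The higher genes were *CTH*, which makes cysteine from cystathionine (1.21 ± 0.20), and the neutral amino acid transporters *SLC1A4* (1.14 ± 0.23) and *SLC1A5* (0.71 ± 0.22). The lower genes included *TYMS*, which makes thymidylate (−0.93 ± 0.10), and *GGH*, which trims folate polyglutamates (−0.78 ± 0.21). *MTHFD2L* and *ALDH1L1*, the relatives of 2 members, differed by 0.31 ± 0.29 and 0.34 ± 0.39. *SFXN1*, a mitochondrial serine carrier, was lower at all 12 hours (−0.45 ± 0.07), and *GLDC* of the glycine cleavage system was not expressed (mean 0.12 FPKM in control).

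A list of *ATF4* and 11 genes of the integrated stress response had 10 of 12 genes higher by the 1.5-fold rule (3.33% of expressed loci). It had 0 lower (7.03%) and a median of 1.01. *ATF4* itself went from 510 ± 86.3 to 964 ± 77.1 FPKM. *ASNS*, asparagine synthetase, differed by 1.20 ± 0.38 and *DDIT3*, the stress factor CHOP, by 1.81 ± 0.42. A list of 10 proliferation genes, of which *TYMS* is also a folate gene, had 10 of 10 lower by the rule (7.03% of expressed loci), with a median of −0.97. Its summed FPKM ranged from 655 to 922 in control and from 289 to 538 in 6AN. These lists moved with the conditions beside the members, and their part in the members' differences was not tested.

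**Figure D5:**
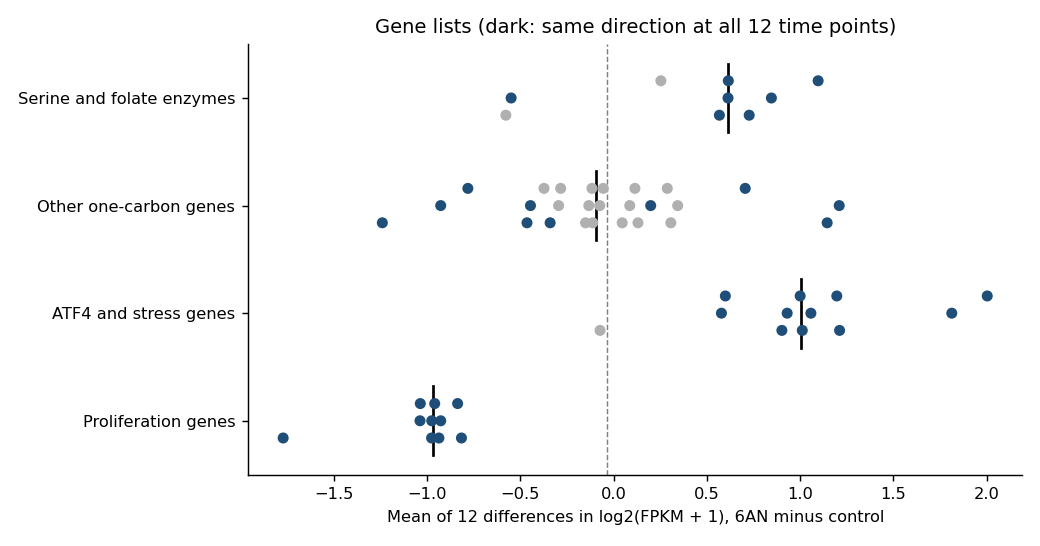
Mean of the 12 differences in log2(FPKM + 1) between 6AN and control (horizontal axis) for each expressed gene of 4 lists, dark where the sign was the same at all 12 time points, with black bars at list medians (0.61, −0.09, 1.01, and −0.97 from top to bottom) and a dashed line at the median of all expressed loci (−0.04). The members fall into a larger group to the right and *MTHFD1* and *SHMT1* to the left.

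The 5 expressed genes whose time courses were most like the mean standardized profile of the members, by Pearson's r over 12 hours averaged over both tables, were *GARS*, glycyl-tRNA synthetase (0.90), *SLC1A5* (0.89), *PCK2*, mitochondrial phosphoenolpyruvate carboxykinase (0.89), *CHAC1*, which degrades glutathione (0.87), and *ASNS* (0.87). This measure used the shape over time in each table and not the level. The mean profile does not stand for every member. In 6AN, *PHGDH* had a median coefficient of −0.10 with the other members and *SHMT1* one of −0.62. Each of the 5 was also higher in 6AN at all 12 time points (12.6% of expressed loci), by 0.55 for *GARS*, 0.71 for *SLC1A5*, 0.85 for *PCK2*, 1.21 for *CHAC1*, and 1.20 for *ASNS*.

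BMAL1 and CLOCK peaks were found at 1 member. A merged peak interval at chr6:150866234-150866442 (hg38), inside the *MTHFD1L* locus, held a peak in all 4 lists (BMAL1 and CLOCK, control and 6AN). No other member had a peak in its locus or within 10000 bases of it. The share of all expressed loci with a peak by this measure was not computed, and the shares that follow are for a different measure. Shared BMAL1/CLOCK sites named 0.844% of expressed loci in the control list and 2.34% in the 6AN list, and *MTHFD1L* was in both. The site was annotated promoter-TSS and its centre lay 6 bases from the nearest start site in the 6AN list.

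With 1 library per antibody and condition there is no replicate check, and intervals are 95% exact Clopper-Pearson intervals for counting error only. Signal is tags in 1000 bp scaled to 10000000 tags per library. At the *MTHFD1L* site the signal of BMAL1 was 40.9 without and 33.6 with 6AN, a ratio whose interval of 0.486 to 1.48 holds 1. CLOCK signal was 82.1 and 123, with an interval of 0.972 to 2.41 that also holds 1. The log2 change of CLOCK at this site was 0.58, with medians of 1.10 over the 439 shared sites of 6AN and 0.86 over the 147 of control. That of BMAL1 was −0.28, with medians of 0.46 and 0.22, and that of H3K9ac in the 6AN list was 0.55, with a median of 0.15, larger than at 327 of the 439 sites. H3K9ac was 188 and 276 (interval 0.971 to 2.36), H3K4me3 was 520 and 481 (interval 0.751 to 1.14), and input was 6.76 and 9.33. No change was detectable at this depth for any of these targets.

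The interval of the peak holds an E-box (CACGTG, the motif bound by BMAL1 and CLOCK) and a match to TGATGNAA, the C/EBP-ATF response element bound by ATF4. Both stand on the plus strand of GRCh38.p14 chromosome 6 in RefSeq promoter windows of 250 bases before to 50 after a start site. The sequences are given because they lie where the peak was called, with the motif in capitals, and the third shows the other member with an E-box:
*MTHFD1L* E-box, chr6:150866320-150866349, plus strand: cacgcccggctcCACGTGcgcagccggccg
*MTHFD1L* TGATGNAA match, chr6:150866346-150866375, plus strand: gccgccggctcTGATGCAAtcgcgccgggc
*MTHFD1* E-box, chr14:64388326-64388352, plus strand: ccagtccctaagCACGTGggttgggtt
*MTHFD1L* has several RefSeq start sites, and its E-box began 154, 115, or 1 base before 3 of them. Its TGATGNAA match began 129 or 90 bases before the first 2 of these and 24 bases after the third. The *MTHFD1* E-box began 15 bases before its start. *MTHFD1* had no BMAL1 or CLOCK peak.

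RefSeq promoter windows were in the table for 6 of 9 members, *PHGDH*, *PSAT1*, *SHMT1*, *MTHFD1*, *MTHFD2*, and *MTHFD1L*. These 6 had 9 windows, of which *MTHFD1L* had 4. Searched on both strands, TGATGNAA was in at least 1 window of 1 of the 6 genes, against 4.46% of all 27305 genes with a window. CACGTG was in 2 of 6 against 8.77%, and TGACNNNGC, the core of the NRF2 element, in 1 of 6 (*MTHFD2*, after the start) against 16.1%. By window, the motifs were in 3, 4, and 1 of the 9, against 3.62%, 7.26%, and 13.3% of all 35116 windows, and the 3 *MTHFD1L* windows with motifs overlap each other. The 3 motifs did not overlap each other in these windows. The windows of *PHGDH*, *PSAT1*, and *SHMT1* held none of the 3.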

How the data were processed

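Members, gene lists, and tests were chosen with earlier results of these data known. The authors aligned reads of rRNA-depleted RNA to hg38 with Bowtie and TopHat, per the labels, and the deposited values are FPKM from Cufflinks, 1 table per condition with its own normalization. The ChIP-seq tables that the authors deposited hold HOMER signal at shared BMAL1/CLOCK sites and a score for each merged peak. The scores were not used. Tool versions are not given in the sources used here. All per-sample columns were used (0 left out). RNA was extracted in triplicate, and pooling is not stated.

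A pseudocount of 1 was added before logarithms. Slopes and harmonics were fitted with limma 3.58.1 (R 4.3.3) with an intensity trend in the variance, and Benjamini-Hochberg adjustment covered the expressed loci, as many as the paper counted (lowest mean 0.698 FPKM). The umbrella test took p from 1000000 random orders of 12 time points and 18 shapes. Fits were tested on simulated data. Python 3.11.15 was used otherwise. Genes named were the 9 members, list genes, and the 5 most alike loci. Alternatives covered pseudocounts, scaling, filters, thresholds, the first and last 6 time points, other fits, and leaving out time points. RAIN was not run. The values of 1 listed gene are not reported here.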

Additional observations from a re-analysis of the deposited data

Results flagged for a closer look

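*SHMT1* differed between conditions in its change over time. Its slope was −0.53 ± 0.12 on the log2(FPKM + 1) scale per 24 hr lower in 6AN than in control (SE, limma interaction, adjusted p = 0.0068 over all expressed loci), from 0.06 ± 0.08 in control and −0.47 ± 0.09 in 6AN. Over fits that each left out a time point the difference ran from −0.64 to −0.47, and it missed the threshold in the fit without 0 hr (adjusted p = 0.056). These p-values measure scatter over the hours of 1 series of cultures per condition and not the spread between experiments. The *SHMT1* locus overlaps *SMCR8* and *MIR6778*, and the part of their reads was not tested. No group held 4 to 10 libraries, so single libraries were not screened as far from the others.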

How the results depend on the processing

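No member's difference between conditions changed sign under any alternative, and *MTHFD1L* joined the higher members when libraries were scaled to the same median or upper quartile. At 2-fold, 1 member was higher in place of 5. For members lower in 6AN, the count went from 0 to 1 with the first 6 time points (*MTHFD1*), the last 6 (*SHMT1*), and no fold minimum (*MTHFD1*), and was 0 to 1 over fits that left out a time point. The first 3 of these settings called 999, 1292, and 2907 of all expressed loci lower, in place of 1033. Ranges that did not overlap went from 4 members to 7 with the first 6 and to 7 with the last 6 time points, which compare fewer values. The share of all expressed loci with separate ranges over 6 time points was not computed. The *PHGDH* call was lost over the last 6 time points (0.40) and without 16 hr, and *MTHFD1L* passed without 4 hr (0.59). Leaving out a time point gave 4 to 6 higher members, 4 to 5 with separate ranges, 6 to 7 with a trend in 6AN, 1 with a different trend, and 0 rhythmic. Control trends went from 4 members to 2 with no filter on low FPKM, to 0 between cycles, and to 2 to 4 when a time point was left out, and the cause was not tested. Harmonic regression with a linear trend called 1 member in control in place of 0 (*SHMT1*, unadjusted p = 0.0037, adjusted p = 0.67). The share of all expressed loci called by that fit was not computed. The 3 ratio differences were positive under every alternative, and their p was the smallest possible in each, so p says nothing of stability. *SHMT2* to *SHMT1* was 1.03 over the first 6 and 1.78 over the last 6 time points, *MTHFD2* to *MTHFD1* 1.60 and 1.22, and *MTHFD1L* to *MTHFD1* 1.18 and 1.08, with leave-one-out ranges of 1.35 to 1.48 (*SHMT2* to *SHMT1*), 1.38 to 1.46 (*MTHFD2* to *MTHFD1*), and 1.11 to 1.16 (*MTHFD1L* to *MTHFD1*).

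A single library per condition and hour, separate normalization, and unknown read totals limit every comparison between conditions.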

Other observations

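Genes of the lists set beside the members also changed over time. Over all expressed loci, 2.96% rose and 2.95% fell in control, and 11.6% rose and 12.3% fell in 6AN. A higher slope in 6AN than in control was called for 3.78% and a lower one for 4.55%. Of the 26 expressed genes of the wider pathway, 2 rose in control (*CTH* and *SLC1A5*) and 0 fell, and in 6AN 7 rose and 2 fell (*ALDH1L1* and *GGH*) by limma. Falls in 6AN were thus no more frequent among them than over all expressed loci. *CTH* rose by 0.61 ± 0.08 per 24 hr in control and by 0.64 ± 0.07 in 6AN (limma adjusted p = 0.0015 and 8.4e-05). *ALDH1L1*, the cytosolic relative of *ALDH1L2*, fell by 0.57 ± 0.09 in 6AN (limma adjusted p = 0.0011). Of the *ATF4* list, 8 of 12 genes rose in control and 10 of 12 in 6AN. The slope of *CHAC1* was lower in 6AN than in control by −0.99 ± 0.16 and that of *ASNS* by −0.46 ± 0.14, while that of *TRIB3* was higher by 0.68 ± 0.13 and that of *SESN2* by 0.32 ± 0.08 (limma interaction, adjusted p = 0.00038, 0.042, 0.0023, and 0.010). Of the 10 proliferation genes, 8 fell in 6AN and 0 in control, and the same 8 had a lower slope in 6AN. *MKI67* fell by 0.95 ± 0.06 per 24 hr in 6AN (limma adjusted p = 6.1e-06), and *PCNA* and *TYMS* were the 2 that passed neither test.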
